A study of Rattus norvegicus with 20 samples.

Results

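Plasminogen activators, matrix metalloproteinases and their inhibitors were followed in rat progenitor cells in culture and in cells derived from them by treatment. The members are all probe sets annotated to the rat symbols Plat, Plau, Plaur, Serpine2, Timp1, Timp2, Timp3, Mmp2 and Mmp14. All 9 genes had a probe set on the array, and Timp1 and Mmp2 had 2 each, which gave 11 member probe sets of 8740 tested. The 2 Timp1 probe sets were designed from the same sequence, so they are not independent of each other.

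Cells were compared in 4 groups on 20 Affymetrix arrays of total RNA. FBS cultures are low-density CCg progenitors treated with FBS (by its usual meaning fetal bovine serum), a treatment the labels give as the way to derive astrocytes (6 arrays, 4 cultures). RA/Fsk cultures started from the same low-density progenitors and received RA/Fsk, usually retinoic acid and forskolin, which the labels give as the way to derive neurons (4 arrays, 4 cultures). HD cultures are high-density progenitors (6 arrays, 3 cultures), and LD cultures are untreated low-density CCg progenitors (4 arrays, 3 cultures). The labels do not expand CCg, do not mention it for HD, and give no strain, age, dose or duration, so density and CCg cannot be told apart between HD and LD. Arrays of a group with the same number in their titles were averaged and counted as 1 culture. Nothing says that the numbers stand for separate animals or platings, so the p-values below reflect differences among these samples alone, which may be technical.

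Plasminogen activators are secreted serine proteases that cut the zymogen plasminogen into plasmin, which degrades fibrin and matrix proteins and releases growth factors. Tissue-type activator (Plat) acts in the nervous system on matrix and synaptic proteins, and urokinase (Plau) works at the cell surface bound to its receptor (Plaur). Serpine2, also called protease nexin or glia-derived nexin, traps thrombin and both activators, while the tissue inhibitors of metalloproteinases (Timp genes) block the zinc-dependent metalloproteinases that cut collagens, proteoglycans and shed receptors.

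Values are array intensities in arbitrary units, given per culture, and log2 differences are on the scale of log2(intensity + 4.99). Array medians ran from 41 to 57.5, and array means without the outer 2% at each end from 200.3 to 200.5. Levels of different probe sets cannot be set against each other. A probe set passed at an adjusted p under 0.05 over all 8740 (limma, Benjamini-Hochberg), and only such differences are called rises or falls. Of the labelled cell types, 4 of 6 measured astrocyte markers rose in FBS cultures and 3 of 6 in RA/Fsk cultures against LD. Of all probe sets, 13.2% and 4.71% rose there. The summed intensity of these markers was 5981 to 8001 in FBS, 7981 to 9339 in RA/Fsk, 3798 to 4990 in HD and 1998 to 2610 in LD. Such a sum is weighted to the brightest probe sets and does not rank FBS and RA/Fsk. Aldoc had 4140.8 to 4942.6 in RA/Fsk and 2226.2 to 2907.4 in FBS. Slc1a3 had 73.0 to 162.2 in RA/Fsk and 341.7 to 368.8 in FBS. RA/Fsk against FBS gave 1 rise and 1 fall among the 6. The 6 measured neuron markers held 0 rises and 1 fall (Gap43) in RA/Fsk cultures against LD, with sums of 1055 to 1339 in RA/Fsk and 1204 to 1387 in LD, so the neuron label is not borne out by these markers and the group is called RA/Fsk here. Gfap, Tubb3 and Sox2 had no probe set with a single symbol. In bulk RNA a change in the share of a cell type cannot be told apart from a change in RNA per cell.

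FBS cultures held more mRNA of tissue-type plasminogen activator, of the urokinase receptor and of all 3 Timp genes than LD cultures, and the urokinase, Mmp2 and Mmp14 probe sets stayed dim and did not pass. Of the 11 member probe sets, 6 rose and 0 fell in FBS against LD, where 25.5% of all probe sets were called and 13.2% rose. RA/Fsk cultures held more Plat, Timp1 and Timp2 than LD (4 of 11 probe sets rose, 0 fell, against 8.25% of all called and 4.71% of all that rose). Between RA/Fsk and FBS, 6 of 11 probe sets fell, those of Plat, Plaur, Timp1, Timp2 and Timp3, and 0 rose (18.4% of all called, 10.1% of all fell). FBS against HD gave 6 rises and 1 fall (Serpine2) among the 11, beside 21% of all called, 11.3% of all that rose and 9.7% that fell. RA/Fsk against HD gave 3 rises, those of Plat and Timp1, and 0 falls (10.2% of all called, 4.85% of all rose). Between HD and LD, 0 of 11 passed, with 1 at an unadjusted p under 0.05 in limma (0.858% of all called). Cultures of the 2 groups did not overlap for 8 member probe sets in FBS against LD (35.4% of all) and for 5 in RA/Fsk against LD (15.5% of all). The median log2 difference over the 11 was 1.10 in FBS against LD and 0.28 in RA/Fsk against LD, beside -0.09 and -0.05 over all probe sets. These comparisons with LD share the same 3 LD cultures.

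**Figure D1:**
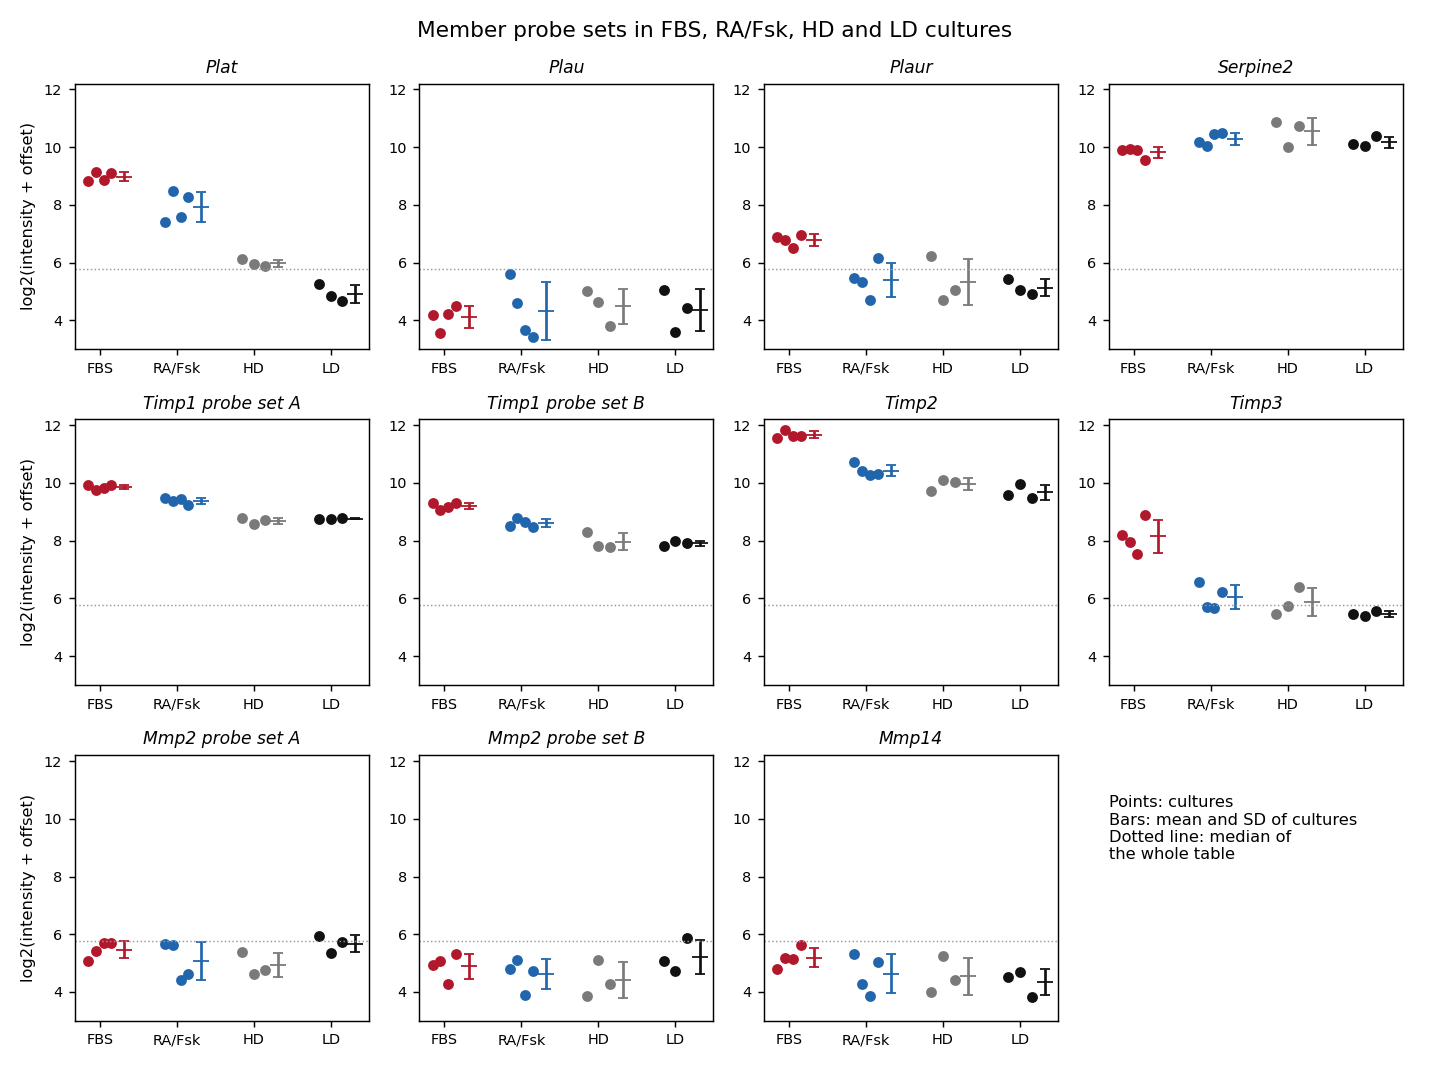
Level of each member probe set, as log2(intensity + 4.99) on the vertical axis, in the FBS, RA/Fsk, HD and LD groups. Points are cultures, bars show the mean and SD over cultures (n = 4, 4, 3 and 3), and the dotted line marks the median of the whole table; Plat and the Timp genes stand highest in FBS, while Plau, Mmp2 and Mmp14 lie near or under the dotted line in every group.

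Plat, at chr16:75943061-76022037 of assembly GRCr8, showed the widest range of the members. Its intensity was 445.7, 558.7, 461.0 and 549.9 in the FBS cultures, 164.8, 352.2, 187.6 and 304.6 in the RA/Fsk cultures, 64.3, 56.2 and 53.7 in the HD cultures, and 33.0, 23.4 and 20.4 in the LD cultures. No pair of groups overlapped, and the order ran FBS, RA/Fsk, HD, LD. Against LD, Plat rose by 4.07 ± 0.24 log2 in FBS (SE, adjusted p = 3.67e-09). In RA/Fsk it rose by 3.02 ± 0.24 log2 against LD (adjusted p = 5.74e-07). It fell by 1.05 ± 0.22 log2 in RA/Fsk against FBS (adjusted p = 0.0029). Set against HD in place of LD, the rise was 3.01 ± 0.24 log2 in FBS and 1.96 ± 0.24 log2 in RA/Fsk (adjusted p = 1.48e-07 and 8.23e-05). Plat exceeded the array median in 0 of 3 LD cultures and no detection calls were at hand, so its LD level is not shown to lie above background and no fold is given. The size of the rise moved with the amount added before taking logs: against LD it was 2.87 log2 in FBS and 1.95 log2 in RA/Fsk with 50 added, and 4.27 and 3.21 log2 with 1 added. Adjusted p-values for these rises ran from 1.21e-12 to 6.3e-07 in FBS and from 7.25e-09 to 0.000294 in RA/Fsk over the alternatives.

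The HD level of Plat lay above that of LD by 1.06 ± 0.26 log2 (95% interval 0.52 to 1.61) and missed the threshold (adjusted p = 0.0647). It was the single member whose HD and LD cultures did not overlap, while 19.7% of all probe sets had non-overlapping cultures in that comparison. The difference passed with quantile normalization (1.20 log2, adjusted p = 0.0314), median centring (1.16, adjusted p = 0.0446), the brighter 50% of probe sets (adjusted p = 0.0425) and each array as its own sample (0.98, adjusted p = 0.00868), with 0.00868 to 0.258 over all alternatives. The fit with each array as its own sample counts repeat arrays of 1 culture as independent. Its p-value, the lowest of that range, is therefore likely too small. Whether Plat is called between HD and LD thus depends on the processing.

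Plau, at chr15:3505485-3511987, encodes urokinase and was dim everywhere. Its intensity ran from 6.9 to 17.5 in FBS, 5.8 to 43.7 in RA/Fsk, 9.1 to 27.0 in HD and 7.2 to 28.4 in LD, and in 0 of 14 cultures did it exceed the median of its array. The FBS difference from LD was -0.25 log2 with a 95% interval of -1.28 to 0.78, so a change of 1 log2 in either direction lies within it. Repeat arrays of HD culture 2 gave 40.1 and 8.4, a gap wider than any group difference.

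Plaur (chr1:89181363-89196308) encodes the receptor that holds urokinase at the cell surface. Its intensity was 114.7, 104.5, 85.9 and 120.6 in FBS cultures, 38.7, 34.7, 21.2 and 65.9 in RA/Fsk cultures, 70.5, 21.3 and 28.5 in HD cultures, and 38.6, 27.8 and 24.8 in LD cultures. All FBS cultures lay above all others, and the other groups overlapped. Plaur rose by 1.66 ± 0.37 log2 in FBS against LD (adjusted p = 0.00252) and by 1.45 ± 0.37 log2 in FBS against HD (adjusted p = 0.00804). With 50 added before taking logs these rises were 0.96 and 0.82 log2, and both passed. RA/Fsk cultures differed from LD by 0.28 log2 (95% interval -0.50 to 1.06, adjusted p = 0.752), and it fell by 1.38 ± 0.34 log2 in RA/Fsk against FBS (adjusted p = 0.00795). With the log2 ratio of the GAPDH 5' and 3' control probe sets as a covariate, the FBS difference from LD was 1.05 ± 0.44 log2 and did not pass (adjusted p = 0.101, with 0.000304 to 0.101 over the alternatives). That ratio, a sign of RNA integrity, was -0.16 to -0.01 in FBS, -0.47 to -0.11 in RA/Fsk and -0.47 to -0.21 in LD, and its part in the result was not tested beyond this fit. The fall in RA/Fsk against FBS was -0.85 log2 with it (adjusted p = 0.166), and the rise against HD did not pass without HD culture 2 (1.14 log2, adjusted p = 0.0618).

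Serpine2, at chr9:88573138-88637252, was bright in every group. Intensities were 953.5, 971.2, 940.2 and 740.5 in FBS, 1155.6, 1050.7, 1385.3 and 1436.4 in RA/Fsk, 1876.2, 1028.3 and 1713.5 in HD, and 1088.4, 1040.6 and 1333.6 in LD. The FBS cultures were the lowest of all and overlapped with no other group. Against LD the difference was -0.35 ± 0.19 log2 in FBS (95% interval -0.75 to 0.04, adjusted p = 0.199) and 0.12 ± 0.19 log2 in RA/Fsk (95% interval -0.28 to 0.52, adjusted p = 0.801). Serpine2 fell by 0.73 ± 0.19 log2 in FBS against HD (adjusted p = 0.00879). That fall did not pass without HD culture 1 (-0.56 log2, adjusted p = 0.0667) or HD culture 4 (-0.63 log2, adjusted p = 0.0548). RA/Fsk lay above FBS by 0.47 ± 0.17 log2 (adjusted p = 0.073), which passed with the brighter 50% of probe sets (adjusted p = 0.0497) and with those groups fitted alone (adjusted p = 0.0363), with 0.0363 to 0.214 over the alternatives.

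**Figure D2:**
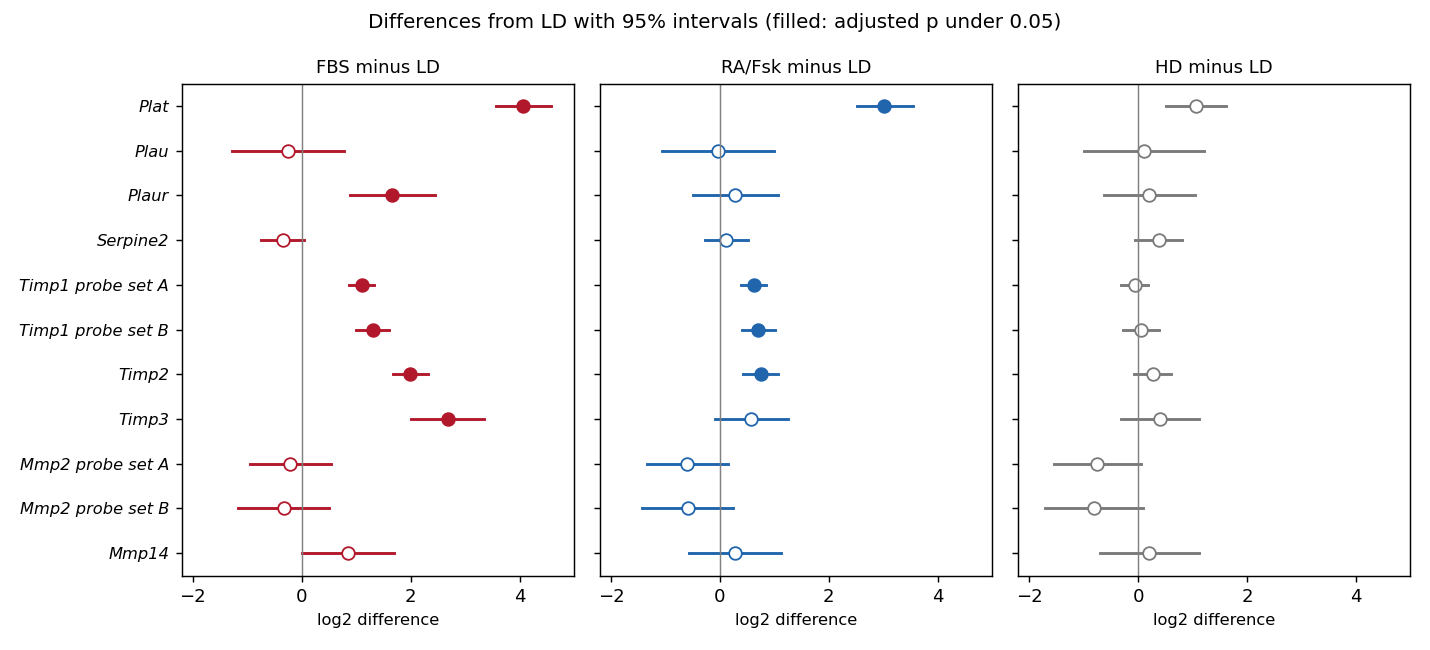
Log2 difference of each member probe set between FBS and LD, RA/Fsk and LD, and HD and LD (horizontal axis, log2 units), with 95% intervals from the limma fit. Filled points have an adjusted p under 0.05: 6 in FBS, 4 in RA/Fsk and 0 in HD.

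The inhibitor of metalloproteinases Timp1 (chrX:3766509-3772578) rose with both treatments on both of its probe sets. The first had intensities of 958.8, 857.9, 906.5 and 969.7 in FBS, 705.1, 666.4, 683.6 and 600.2 in RA/Fsk, 433.8, 380.3 and 415.1 in HD, and 428.9, 422.4 and 433.2 in LD. FBS, RA/Fsk and the progenitors formed separate steps without overlap, and HD overlapped with LD. The rise against LD was 1.10 ± 0.11 log2 in FBS and 0.62 ± 0.11 log2 in RA/Fsk (adjusted p = 1.24e-06 and 0.00157). The second probe set gave 1.30 ± 0.14 and 0.70 ± 0.14 log2 (adjusted p = 3.9e-06 and 0.00536). RA/Fsk differed from FBS by -0.47 ± 0.10 log2 on the first and -0.60 ± 0.13 log2 on the second (adjusted p = 0.00283 and 0.00402); the first did not pass with median centring (adjusted p = 0.054, with 0.000378 to 0.054 over the alternatives). HD differed from LD by -0.06 log2 (95% interval -0.31 to 0.18) and 0.06 log2 (-0.27 to 0.38).

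Timp2, at chr10:104041604-104089214, encodes the inhibitor that also docks the Mmp2 zymogen to Mmp14 for its activation. Its intensity was 3004.6, 3671.2, 3193.5 and 3182.6 in FBS, 1680.3, 1364.1, 1226.2 and 1268.7 in RA/Fsk, 831.2, 1098.2 and 1049.2 in HD, and 756.3, 998.9 and 716.1 in LD. Every FBS culture lay above every RA/Fsk culture, and these above all progenitors. Timp2 rose by 1.99 ± 0.15 log2 in FBS (adjusted p = 6.47e-08) and by 0.75 ± 0.15 log2 in RA/Fsk (adjusted p = 0.00441) against LD, and it fell by 1.24 ± 0.14 log2 in RA/Fsk against FBS (adjusted p = 6.76e-06). Against HD the RA/Fsk difference was 0.48 ± 0.15 log2 and missed the threshold (adjusted p = 0.0541). It passed with the brighter 50% of probe sets (adjusted p = 0.0351) and without RA/Fsk culture 3 (adjusted p = 0.042). With each array as its own sample, which counts repeat arrays as independent, it also passed (adjusted p = 0.016). The range was 0.016 to 0.23 over the alternatives.

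Timp3 (chr7:19408539-19459558) encodes a matrix-bound inhibitor that also blocks the sheddase Adam17. Intensities were 291.5, 243.5, 182.2 and 467.2 in FBS, 90.1, 47.1, 46.1 and 70.3 in RA/Fsk, 38.7, 48.3 and 80.1 in HD, and 38.8, 36.6 and 42.7 in LD. FBS stood apart, RA/Fsk overlapped with HD, and RA/Fsk lay above LD without overlap. The rise in FBS against LD was 2.68 ± 0.32 log2 (adjusted p = 6.96e-06). It was 1.89 log2 with 50 added before taking logs, and 1.89 to 2.88 log2 over all alternatives. Timp3, too, exceeded the array median in 0 of 3 LD cultures. The RA/Fsk difference from LD was 0.58 ± 0.32 log2 and did not pass (95% interval -0.09 to 1.25, adjusted p = 0.325), and Timp3 fell by 2.10 ± 0.29 log2 in RA/Fsk against FBS (adjusted p = 6.62e-05). FBS culture 3 had 298.2 on array 3 and 110.6 on array 3r. With 3r alone the rise was 2.51 ± 0.38 log2 (adjusted p = 0.000113).

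Promoter sequence is shown for the 4 genes that rose in FBS and have an entry in the RefSeq promoter table of GRCr8; Plau and Serpine2 also have one, and Plat, Mmp2 and Mmp14 do not. Each line gives the 250 bases before the start site, 5′ to 3′ on the gene's strand, for Plaur at chr1:89181113-89181362 on the plus strand, Timp1 at chrX:3771123-3771372 on the minus strand, Timp2 at chr10:104089215-104089464 on the minus strand and Timp3 at chr7:19459559-19459808 on the minus strand. The Timp1 window lies inside the gene's annotated span. Capitals mark matches on either strand to AP-1 (TGANTCA), its variant TGAGTAA known from the TIMP1 promoter of human and mouse, CRE (TGACGTCA), PEA3/Ets (AGGAAG), the GC box (GGGCGG) or the TATA box (TATAAA).
Plaur: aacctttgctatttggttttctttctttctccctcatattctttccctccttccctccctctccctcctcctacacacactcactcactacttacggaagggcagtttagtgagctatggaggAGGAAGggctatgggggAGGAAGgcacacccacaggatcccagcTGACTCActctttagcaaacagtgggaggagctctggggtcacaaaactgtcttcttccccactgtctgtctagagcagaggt
Timp1: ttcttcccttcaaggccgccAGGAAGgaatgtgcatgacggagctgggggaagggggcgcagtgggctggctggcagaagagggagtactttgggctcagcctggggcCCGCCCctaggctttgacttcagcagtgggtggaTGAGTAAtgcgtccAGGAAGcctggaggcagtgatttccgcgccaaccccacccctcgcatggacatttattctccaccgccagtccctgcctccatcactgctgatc
Timp2: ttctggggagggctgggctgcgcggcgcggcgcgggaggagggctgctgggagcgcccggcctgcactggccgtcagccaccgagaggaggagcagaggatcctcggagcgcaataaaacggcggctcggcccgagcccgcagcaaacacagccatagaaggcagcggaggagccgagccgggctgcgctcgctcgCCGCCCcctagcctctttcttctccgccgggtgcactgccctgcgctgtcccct
Timp3: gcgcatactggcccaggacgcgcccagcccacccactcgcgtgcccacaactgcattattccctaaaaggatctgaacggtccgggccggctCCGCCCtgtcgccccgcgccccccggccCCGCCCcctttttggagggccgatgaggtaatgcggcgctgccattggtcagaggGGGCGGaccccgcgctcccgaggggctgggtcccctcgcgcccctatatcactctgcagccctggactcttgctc
Plaur held an AP-1 match at -83 and PEA3/Ets matches at -127 and -110, counted from the start site. Timp1 held the variant at -108 with a PEA3/Ets match at -94, another at -230 and a GC box at -142. Timp2 had a GC box at -54, and Timp3 had GC boxes at -158, -130 and -75. Neither CRE nor TATA letters were found in these 4 windows. Plau and Serpine2, which did not rise in FBS, held some of the same letters. Plau had GC boxes at -122, -104 and -87. Serpine2 had a PEA3/Ets match at -67 and GC boxes at -217, -97, -92, -80, -61 and -55. Of 33469 promoter windows in the table, each 300 bases long with 50 bases after the start, 7.33% held the AP-1 letters, 2.90% the variant, 1.83% the CRE letters, 34.5% the PEA3/Ets letters, 33.1% a GC box and 14.2% a TATA box. Among the 4192 windows of genes on the array the shares were 5.89%, 2.03%, 2.43%, 35.2%, 55.7% and 11.3% in the same order. Matches do not overlap one another in the lines shown and are a description of letters.

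The member metalloproteinases, Mmp2 and Mmp14, did not pass in any comparison. Mmp2 (chr19:30327643-30355856), the gelatinase that cuts denatured and basement membrane collagen, had intensities of 28.6 to 46.9 in FBS, 16.5 to 45.7 in RA/Fsk, 19.6 to 37.3 in HD and 36.1 to 56.0 in LD on its first probe set. The second ran from 9.7 to 52.9 over all cultures, and each exceeded the array median in 1 of 14. Their FBS differences from LD were -0.21 log2 (95% interval -0.95 to 0.54) and -0.32 log2 (-1.16 to 0.51). The RA/Fsk differences from LD were -0.60 log2 (-1.34 to 0.15) and -0.59 log2 (-1.42 to 0.24). Mmp14 (chr15:31857824-31867049), the membrane-bound activator of Mmp2, had 22.6, 31.6, 30.4 and 44.3 in FBS, 35.1, 14.4, 9.7 and 27.6 in RA/Fsk, 11, 33.2 and 16.1 in HD, and 17.9, 20.7 and 9.2 in LD. Its FBS cultures all lay above its LD cultures, yet the difference of 0.85 ± 0.40 log2 did not pass (95% interval 0.00 to 1.69, adjusted p = 0.143). No culture exceeded its array median for Mmp14, and the 2 arrays of LD culture 1 gave 42.1 and 6.1.

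Repeat arrays differed more for the dim probe sets than for the others. In 6 cultures with 2 arrays each, the absolute log2 difference between the arrays had a median of 0.78 over the 4 probe sets of Plau, Mmp2 and Mmp14 and of 0.20 over the other 7. It was at most 0.21 for the first Timp1 probe set and 0.32 for Serpine2, and reached 2.09 for Mmp14. In FBS against LD the intervals of Plau, Mmp14 and the second Mmp2 probe set take in a change of 1.10 log2, the size of the Timp1 rise, in at least 1 direction, and that of the first Mmp2 probe set does not.

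**Figure D3:**
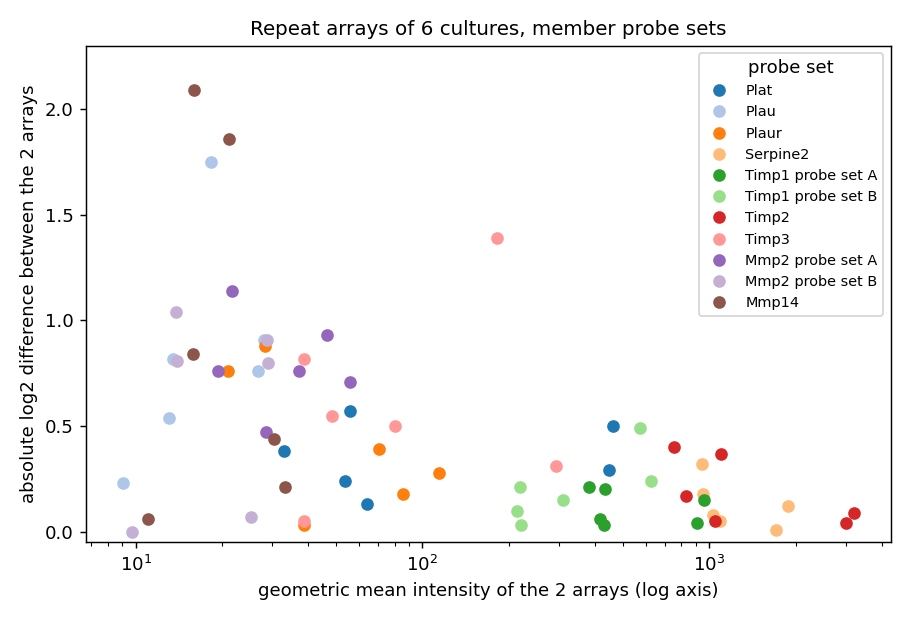
Absolute log2 difference between the 2 arrays of 1 culture (vertical axis) against their geometric mean intensity (horizontal log axis), for each member probe set in 6 cultures. Gaps over 1 log2 lie at low intensity, apart from Timp3 in FBS culture 3 at 1.39.

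Partners were also read as log2 ratios within a culture, after averaging of repeat arrays, which show unequal change and no order of levels. Exact 2-sided permutation tests over cultures were run for 9 pairs in 4 comparisons, but the smallest p they can give, 0.0286 to 0.1, cannot pass adjustment over 36 tests, so the ratios are described without a test. The log2 ratio of Plat to its inhibitor Serpine2 differed by 4.43 in FBS against LD (SD of the ratio 0.30 and 0.44, n = 4 and 3) and by 2.91 in RA/Fsk against LD (SD 0.60 and 0.44). Between RA/Fsk and FBS the same ratio differed by -1.52 (SD 0.60 and 0.30, n = 4 each). The change of Timp1 minus that of Timp2 in FBS against LD was -0.89 log2, and minus that of Timp3 it was -1.58 log2. Plau minus Plaur gave -1.91 log2 in that comparison, with Plau above the array median in 0 of 14 cultures. Plat, Plaur and Timp3 each exceeded the array median in 0 of 3 LD cultures. The sizes of their ratios against LD thus rest on levels not shown to lie above background. The ratio of Mmp2 to Timp2 differed by -2.2 log2 in FBS and by -1.35 log2 in RA/Fsk against LD, with Mmp2 itself near the array median or below.

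Across the 14 cultures, which fall into 4 groups, Timp1 (first probe set) and Timp2 correlated at Pearson r = 0.91, Timp2 and Timp3 at 0.92, and Plat and Timp1 at 0.92. Plat and Serpine2 had r = -0.46, and Plat and Plau -0.18. Among 4080 other probe sets, the genes most like Plat were Rhoc (r = 0.971) and Cd9 (0.966), and those most like Plaur were Cp (0.929) and Hspa1a (0.913). Timp1 lay nearest to Col5a1 (0.978) and Pam (0.977), Timp2 to Sparc (0.980) and Cryab (0.978), and Timp3 to Casp1 (0.964) and Pakap (0.963). The Sparc probe set differed from LD by 6.15 log2 in FBS and 2.09 in RA/Fsk, while another Sparc probe set differed by 0.67 ± 0.26 and 0.48 ± 0.26 log2 and did not pass (adjusted p = 0.0738 and 0.325), so probes of that gene disagree. For Serpine2 the nearest were Cox7a2l (0.868) and Cspg5 (0.862).

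Among other genes of pericellular proteolysis, Pcsk6, Furin, F3 and S100a10 had the lowest adjusted p of the rises in FBS, and Mmp11, Ctsb, F3 and Bsg in RA/Fsk, each against LD. Of 50 listed partners, 32 had a probe set, and 11 rose and 3 fell in FBS against LD, with a median of 0.38 log2 beside -0.09 over all probe sets. With RA/Fsk against LD 4 rose and 0 fell (median 0.04, beside -0.05), and in RA/Fsk against FBS 0 rose and 10 fell. Over all probe sets, 13.2% rose in FBS against LD, 4.71% rose in RA/Fsk against LD and 10.1% fell in RA/Fsk against FBS. The proprotein convertase gene Pcsk6 had 889.8 to 1273.6 in FBS against 84.5 to 116.9 in LD (3.36 ± 0.17 log2, adjusted p = 8.45e-10), and Furin, which activates Mmp14, rose by 2.12 ± 0.17 log2 (adjusted p = 1.42e-07). Their RA/Fsk differences from LD were 0.28 log2 for Pcsk6 and 0.48 log2 for Furin and did not pass (adjusted p = 0.404 and 0.106). F3, the tissue factor that starts thrombin formation, rose by 2.07 ± 0.17 log2 in FBS and by 0.79 ± 0.17 log2 in RA/Fsk (adjusted p = 1.91e-07 and 0.00805), and it was the single partner to rise in HD against LD (0.93 ± 0.19, adjusted p = 0.0227). S100a10, which with Anxa2 forms a surface receptor for Plat and plasminogen, rose by 1.72 ± 0.18 log2 in FBS against LD (adjusted p = 1.92e-06). Mmp11, the metalloproteinase stromelysin-3, had 397.5 to 992.5 in FBS, 413.5 to 1525.6 in RA/Fsk and 160.6 to 228.4 in LD, and it rose by 1.55 ± 0.36 and 1.92 ± 0.36 log2 (adjusted p = 0.00403 and 0.00313). The lysosomal protease gene Ctsb rose by 0.87 ± 0.17 log2 in RA/Fsk against LD (adjusted p = 0.00394), and Bsg, an inducer of metalloproteinases, by 0.55 ± 0.12 log2 (adjusted p = 0.0102).

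The 3 partners that fell with FBS, named after their values were seen, were all metalloproteinases: Mmp16 (-1.45 ± 0.30 log2), Mmp13 (-1.20 ± 0.33) and Mmp23 (-0.91 ± 0.32), with adjusted p = 0.00159, 0.0111 and 0.0488. Of these, Mmp16, a membrane-type enzyme, had 53.3 to 58.8 in FBS and 105.6 to 208.7 in LD, while Mmp13 and Mmp23 reached at most 27.5 and 30.4 in either group. Of all 8740 probe sets, 1072 fell in FBS against LD, so falls were no more frequent among the 32 measured partners. Of the other measured Mmp genes in the list, Mmp11 rose and the rest were not called. The uncalled ones differed from LD by between -0.64 log2 (Mmp7) and 0.80 log2 (Mmp9). The rate of falls above covers all partners, and a shift of metalloproteinases as a class was not tested. Plasminogen itself (Plg) lay between 2.5 and 7.3 in all 14 cultures. Timp4 and Lrp1 were among the 18 listed genes with no single-symbol probe set.

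**Figure D4:**
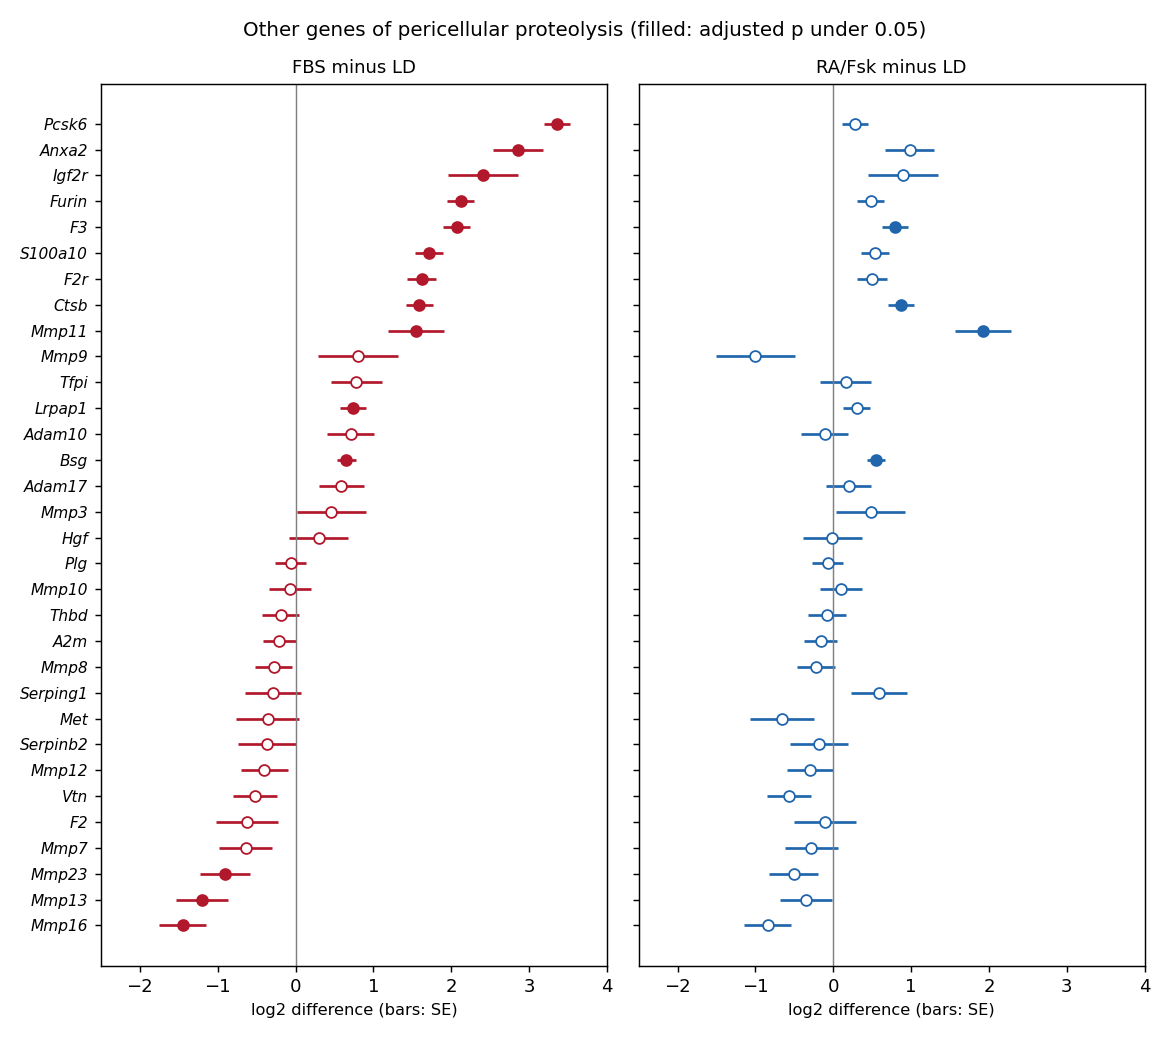
Log2 difference (horizontal axis, bars are SE) of 32 other genes of pericellular proteolysis between FBS and LD and between RA/Fsk and LD, sorted by the FBS difference. Filled points have an adjusted p under 0.05: 11 rises and 3 falls in FBS, 4 rises in RA/Fsk.

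Of 36 listed matrix and surface substrates, 28 were measured, and 13 rose and 1 fell in FBS against LD (median 0.76 log2, beside -0.09). In RA/Fsk against LD 2 rose and 4 fell (median 0.03, beside -0.05). Among all 8740 probe sets, 1153 rose and 1072 fell in FBS against LD, and 412 rose and 309 fell in RA/Fsk against LD. Fn1, fibronectin, a plasmin substrate, had 1929.3 to 3413.5 in FBS, 16.7 to 50.4 in RA/Fsk and 30.1 to 45.4 in LD. Cd44, a hyaluronan receptor shed by Mmp14, rose by 4.57 ± 0.21 log2 in FBS (adjusted p = 2.29e-10), and the brain proteoglycan gene Ncan by 2.73 ± 0.22 (adjusted p = 1.33e-07). In RA/Fsk against LD, Agrn, the synapse-organising proteoglycan, fell by 1.48 ± 0.18 log2 (adjusted p = 7.03e-05) and Col5a1 rose by 1.22 ± 0.21 (adjusted p = 0.00171).

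Markers of other cells were read beside these rises. Of 7 measured fibroblast and meningeal markers, Fn1 rose and Thy1 fell in FBS against LD; the summed intensity was 2127 to 3651 in FBS and 225 to 276 in LD. Without Fn1, which is also among the substrates, no single one of the other 6 markers exceeded 106.0 in FBS or 88.8 in LD. Of 8 microglia and macrophage markers 0 rose and 1, Coro1a, fell, with sums of 158 to 207 in FBS, 170 to 285 in RA/Fsk and 320 to 395 in LD, and 5 endothelial and pericyte markers held 0 calls in FBS or RA/Fsk against LD (sums 195 to 318, 204 to 283 and 179 to 253). Neuron markers held 1 rise of 6 in FBS against LD, that of the neurofilament gene Nefm (2.26 ± 0.58 log2, adjusted p = 0.00765), with 81.1 to 117.7 in FBS, 10.3 to 150.6 in RA/Fsk and 7.5 to 25.1 in LD. Neural progenitor markers held 4 falls of 6 in FBS and 1 in RA/Fsk against LD, and oligodendrocyte lineage markers 1 rise and 1 fall of 5 in FBS and 2 rises in RA/Fsk. Schwann markers held 0 calls of 3 in FBS and 1 rise in RA/Fsk. Beside these counts, 25.5% of all probe sets were called in FBS and 8.25% in RA/Fsk against LD, so single calls in such short lists say little. The number of markers in all these lists at 0 was 0 in every group. Their part in the rises of Plat, Plaur and the Timp genes was not tested.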

How the data were processed

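Rat cultures were profiled on 20 one-colour Affymetrix arrays. The deposited table holds 1 linear intensity per probe set and array (8799 probe sets, 6 zeros, 0 negative values). That the authors scaled arrays to a common level is inferred from the trimmed means; for background correction, summarisation and detection calls, no source used here gives a method. The 59 control probe sets were left out. Symbols came from GEO's platform annotation: 7006 probe sets carry 1 symbol, 308 several and 1426 none, and 6985 gene identifiers were found in the RefSeq table of GRCr8 with 0 symbols changed. All 191 probe sets with # in their identifier have no single symbol.

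Intensities were taken to log2 after adding 4.99, 10% of the median positive value of 49.9, and arrays of 1 culture were averaged; culture intensities are back-transformed from these means. All 4 groups were fitted together (limma 3.58.1 in R 4.3.3, eBayes with an intensity trend, 10 residual and 6.13 prior degrees of freedom), with Benjamini-Hochberg adjustment over 8740 probe sets. The fit was also run on simulated data with independent noise. Fewer probe sets were changed there than were called in FBS against LD, so its error rates need not hold here. The number of arrays limits the precision.

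Members, lists, pairs and tests were chosen with earlier results of these data known. The naming rule took every member probe set, the 2 genes most correlated with each called member, and, per list, at most 4 genes by lowest adjusted p. The variant AP-1 letters were added after the promoters were read.

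Numbers in the titles recur between groups. Deviations from the group means of same-numbered RA/Fsk and LD cultures correlated at 0.327, 0.157 and 0.108, all above 0.1. In the other comparisons at least 1 correlation was 0.1 or lower, and HD against LD had 0.143 and 0.09. The labels do not state a pairing, and these correlations do not settle it. All main estimates and p-values come from the fit without pairing. The replicate number entered only as an alternative. Alternatives covered the offset, scaling, a filter on dim probe sets, the intensity trend, averaging of arrays, arrays 3 and 3r, the groups fitted, the replicate number, the GAPDH ratio and each culture left out. Where each array was its own sample, repeat arrays of 1 culture counted as independent, so p-values and counts from that fit are likely too favourable.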

Additional observations from a re-analysis of the deposited data

Results flagged for a closer look

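Serpine2 in FBS culture 4 had an intensity of 740.5, while the other 3 FBS cultures lay between 940.2 and 971.2. Its distance to the nearest of them was 0.88 of the whole range of the group on the log2 scale. Both groups of 4 cultures were examined for all 11 member probe sets, which makes 22 checks, and chance alone flags about 1 in 20.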

How the results depend on the processing

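Of 66 member results (11 probe sets in 6 comparisons), 57 stayed on their side of the threshold under all of 17 to 20 alternatives each. Of 26 called results 6 lost their call under some alternative and 0 changed sign. For HD against LD the number of called members was 1 in place of 0 with quantile normalization, median centring, the brighter 50% of probe sets and each array as its own sample, and it was Plat each time. Called members ran from 5 to 6 in FBS against LD, 4 to 4 in RA/Fsk against LD, 5 to 7 in RA/Fsk against FBS, 6 to 7 in FBS against HD and 2 to 4 in RA/Fsk against HD. With the replicate block, which treats same-numbered cultures as paired, 4 members were called in RA/Fsk against LD, and the block ended no member call. The rise of the second Timp1 probe set in RA/Fsk against HD did not pass with median centring, with those groups alone or without HD culture 4 (highest adjusted p 0.0618). Over all probe sets, the count for HD against LD ran from 23 (without HD culture 4) to 465 (each array as its own sample), beside 75; it was 362 with those groups alone in place of 721 for RA/Fsk against LD, and 502 in place of 889 for RA/Fsk against HD, or 559 without HD culture 4. The causes were not tested. Median centring moved the median over all probe sets by -0.19 log2 in FBS against HD. There it changed the share of rises among calls to 38.8%, beside 53.7%, and in RA/Fsk against FBS to 55.3%, beside 45.0%. Dim signal limits what can be said of Plau, Mmp2 and Mmp14.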
